A study of Mus musculus with 9 samples.

Results

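Expression of 10 genes of the BCL2 family was described in B16 cells, a mouse melanoma line. The genes were chosen by symbol and were all found among the 22972 gene names of the 9 libraries. They are the survival genes Bcl2, Bcl2l1, Bcl2l2 and Mcl1, the BH3-only death genes Bcl2l11, Bid, Bad and Pmaip1, and the pore-forming genes Bak1 and Bok. A gene was tested where its mean over the 9 libraries was at least 1 FPKM, a unit of sequenced fragments that is corrected for transcript length and for the size of the library. The limit was passed by 7 of the 10 members, and Bcl2, Bok and Pmaip1 fell under it. All cells were wild type, were grown on flexible PDMS film and were harvested on day 3. The groups were 3 libraries of cells without straining (CTL), 3 of cells strained cyclically for 72 h (MS) and 3 of cells kept for 72 h in medium with blebbistatin, an inhibitor of myosin, at 100 ng/mL (Blebb). The labels of the Blebb group name only the inhibitor, whereas the paper's methods describe straining after the inhibitor was added, so whether the Blebb cells were strained is not settled here. The libraries are called parallel experiments of 1 cell line, and no source used here says that they came from separate cultures. The p-values therefore measure the spread between these libraries, which may be technical.

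Proteins of the BCL2 family decide at the outer membrane of mitochondria whether a cell dies by apoptosis. BAX and BAK open pores through which cytochrome c leaves and caspases are then activated. BCL2, BCL-XL, BCL-W and MCL1 hold these pore formers in check, and the BH3-only proteins are induced or modified under stress and block the survival proteins or activate the pore formers directly. In pigment cells, MITF, the master regulator of the lineage, is known to act on the Bcl2 gene, and melanomas are known to rely heavily on MCL1 and BCL-XL.

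The 3 survival genes whose upstream sequences are shown here were the most abundant (Mcl1), the one whose libraries separated between groups (Bcl2l1) and the lowest (Bcl2). Each sequence holds the 250 bases before a transcription start in the RefSeq table of GRCm38.p6, the build family named in the submitters' processing notes, read 5′ to 3′ on the strand of the gene. For Bcl2l1 the most upstream of its 3 listed starts was taken. Capitals mark GC boxes (GGGCGG on either strand) and ETS core sites (CCGGAAG on either strand), which are searched letters and not measured binding sites. The positions are chr2:152831729-152831978 (minus strand) for Bcl2l1, chr3:95658471-95658720 (plus strand) for Mcl1 and chr1:106714291-106714540 (minus strand) for Bcl2.
Bcl2l1: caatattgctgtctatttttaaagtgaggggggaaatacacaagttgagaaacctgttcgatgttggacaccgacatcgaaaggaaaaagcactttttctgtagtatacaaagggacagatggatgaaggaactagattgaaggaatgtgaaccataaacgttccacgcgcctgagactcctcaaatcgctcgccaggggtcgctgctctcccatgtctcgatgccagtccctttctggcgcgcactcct
Mcl1: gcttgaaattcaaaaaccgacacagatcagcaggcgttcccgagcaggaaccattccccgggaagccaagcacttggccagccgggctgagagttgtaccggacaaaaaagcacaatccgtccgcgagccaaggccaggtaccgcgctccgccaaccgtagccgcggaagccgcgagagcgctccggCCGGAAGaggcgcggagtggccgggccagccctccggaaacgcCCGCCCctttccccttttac
Bcl2: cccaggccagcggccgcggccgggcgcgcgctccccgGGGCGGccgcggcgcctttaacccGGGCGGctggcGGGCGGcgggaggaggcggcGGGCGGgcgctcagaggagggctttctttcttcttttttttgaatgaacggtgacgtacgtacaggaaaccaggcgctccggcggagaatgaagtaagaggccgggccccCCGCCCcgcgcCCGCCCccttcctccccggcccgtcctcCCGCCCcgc
The Bcl2 window held 7 GC boxes with a GC content of 74.8%, the Mcl1 window held 1 GC box and 1 ETS core at 64.4%, and the Bcl2l1 window held neither at 47.6%, beside a median of 52.4% over 32851 windows of the same length. GC boxes were present in 32.7% of all windows and ETS cores in 6.91%. The M-box core CATGTG, a sequence that MITF can bind, was in 12.3% of all windows and in none of the 3 shown, while 1 of the other Bcl2l1 windows held it. No other sequence was searched for MITF, so its absence does not show that a window lacks MITF sites. Of the members, 9 had a window in the table, 7 of these held a GC box (Bad, Bcl2, Bcl2l11, Bcl2l2, Bid, Bok and Mcl1) and 2 held an ETS core (Bcl2l11 and Mcl1). Counted by window, as in the shares of all windows, 8 of 13 member windows held a GC box and 2 of 13 an ETS core.

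The libraries did not group by treatment, which bears on each comparison. The first principal component of the 10109 genes tested accounted for 70.4% of the variance, with a score of -42.1 for CTL replicate 1 and of -43.9 for Blebb replicate 2 and scores between -10.0 and 35.8 for the others. Once the dependence of each library on the GC content of the genes was removed, CTL replicate 1, MS replicate 3 and Blebb replicate 2 were the libraries below 0. The depth of the libraries is unknown, since low values of any pair of libraries shared no common step. All 7 melanocyte markers were present at 8.51 FPKM or more in each library. Fibroblast markers (6 genes) summed to at most 0.968 FPKM with Dcn and Lum at 0, and keratinocyte markers (6 genes) to at most 0.055 FPKM with Krt1, Krt10 and Trp63 at 0. Macrophage markers (6 genes) summed to between 2.13 and 4.32 FPKM, with Ptprc at 0 and Cd68 alone above a mean of 1 FPKM.

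Among the members, levels spanned from Bak1 at a mean of 75.1 FPKM over the 9 libraries to Bok at 0.201 FPKM. FPKM is scaled by gene length, so the genes can be set in order, within a limit for genes that share exon bases with others. Bad and Bid overlap with Gpr137 and Bcl2l13 on the opposite strand, at means of 34.3 and 30.2 FPKM. The strand setting of the counting is not given, so their levels may include fragments of these genes. Bak1 was followed by Mcl1 (44.4 FPKM), Bad (36.2 FPKM), Bcl2l1 (32.1 FPKM), Bid (14 FPKM), Bcl2l2 (6.60 FPKM), Bcl2l11 (1.58 FPKM), Bcl2 (0.707 FPKM) and Bok. Bak1 was above Mcl1 in 9 of 9 libraries, and the ranges of the pair did not overlap. In the middle of the order the ranges did overlap. Mcl1 was above Bad in 8 of 9 libraries and Bad above Bcl2l1 in 7 of 9, so these 3 genes could not be ranked beyond their spread. Below them, Bcl2l1, Bid, Bcl2l2 and Bcl2l11 kept their order in 9 of 9 libraries without overlap. Bcl2l11 was above Bcl2 in 8 of 9.

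**Figure D1:**
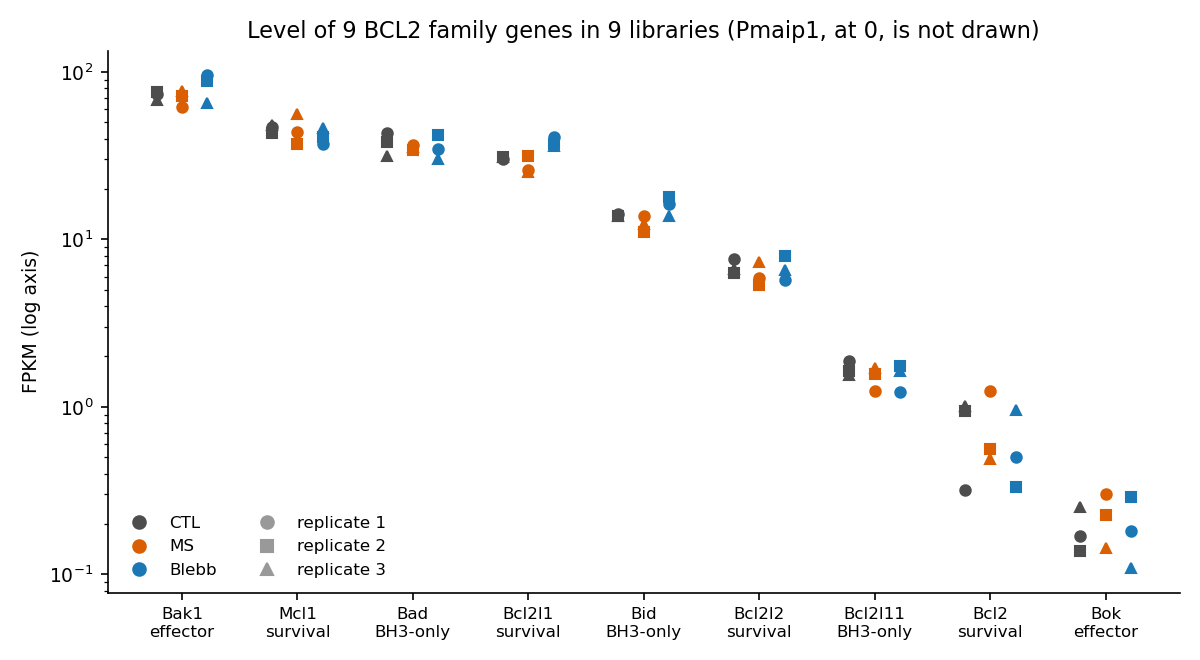
FPKM on a log axis of the 9 members with a value above 0 in each of the 9 libraries, with the groups in separate colours and the replicate numbers as symbols. Bak1 lies highest, between 61.9 and 95.3 FPKM, and Bok lowest, between 0.109 and 0.302 FPKM.

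Bcl2l1 encodes BCL-XL, the survival protein that binds BAX, BAK and several BH3-only proteins. It lies on chr2:152780668-152831728 (GRCm38, GENCODE M21, minus strand) with 9 annotated transcripts, and the long and short protein forms cannot be told apart in a value per gene. Its level was 30.4, 30.9 and 30.9 FPKM in CTL, 25.9, 31.5 and 25.2 FPKM in MS, and 40.7, 37.1 and 36.2 FPKM in Blebb. All 3 Blebb libraries were above all 3 MS and all 3 CTL libraries, while MS and CTL overlapped through MS replicate 2. CTL averaged 30.7 ± 0.287 FPKM, MS 27.5 ± 3.45 FPKM and Blebb 38.0 ± 2.35 FPKM (SD, n = 3). On the log2(FPKM + 1) scale, which understates changes of low genes, Blebb was higher than MS by 0.46 (standard error 0.12, 95% interval from 0.19 to 0.73) with an unadjusted p of 0.00411 and an adjusted p of 0.897 (limma, adjusted by Benjamini-Hochberg over the 10109 genes). Against CTL, Blebb was higher by 0.30 (95% interval from 0.024 to 0.57, unadjusted p = 0.0362, adjusted p = 1.00, limma). MS was lower than CTL, with a log2 difference of -0.16 (standard error 0.12, adjusted p = 1.00, limma). Its 95% interval, from -0.43 to 0.11, included 0. None of the 3 differences passed the threshold of 0.05 after adjustment. Both Blebb comparisons use the same Blebb libraries and are not independent. With CTL replicate 1, MS replicate 3 and Blebb replicate 2 left out together the values were 0.42 against MS and 0.30 against CTL, and with the GC trend removed they were 0.34 and 0.26.

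**Figure D2:**
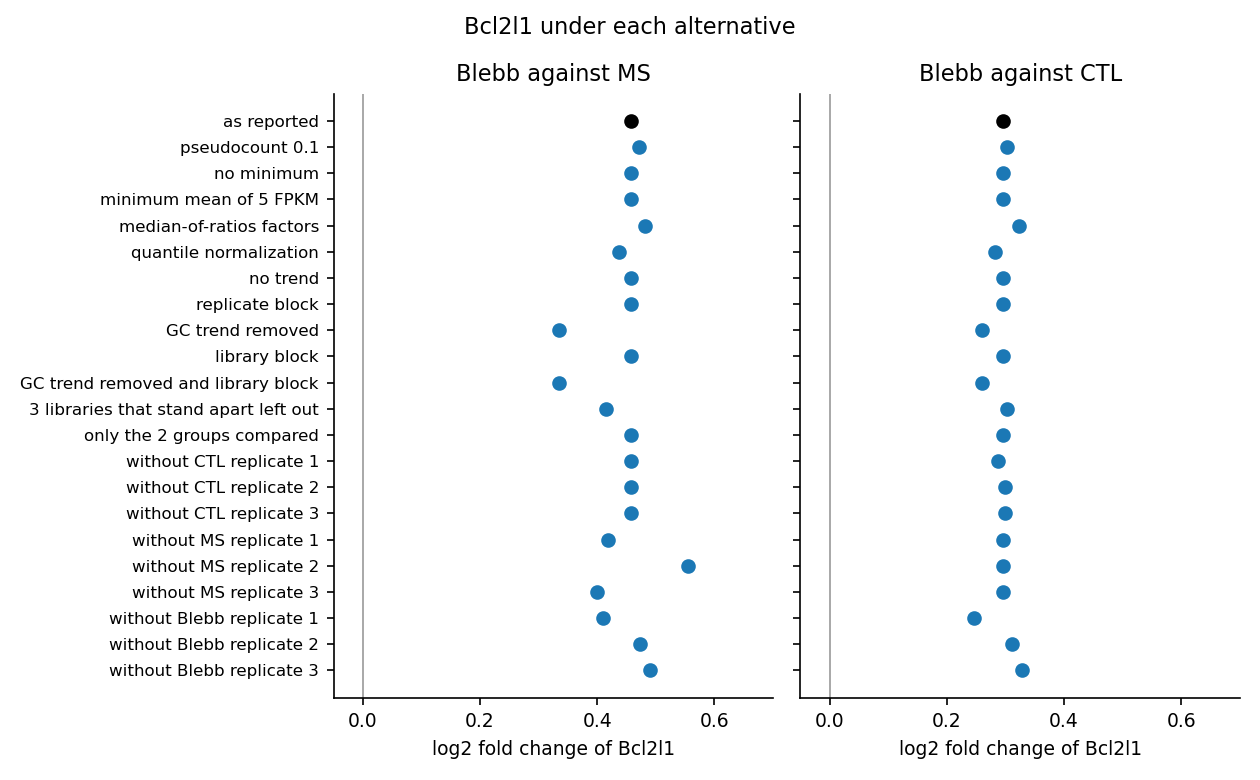
Log2 fold change of Bcl2l1 for Blebb against MS (left) and Blebb against CTL (right) as reported (black) and under each alternative (blue), including each library left out in turn. All points lie to the right of 0, from 0.34 to 0.56 against MS and from 0.25 to 0.33 against CTL.

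Mcl1 encodes a short-lived survival protein that is renewed constantly and holds BAK and BIM. The gene (chr3:95658788-95663176, plus strand) was at 46.8, 43.3 and 48.5 FPKM in CTL, 43.6, 37.1 and 55.9 FPKM in MS and 37.3, 40.8 and 46.0 FPKM in Blebb. The MS libraries held both the lowest and the highest value, and the groups overlapped in every comparison. On the log2 scale the difference was -0.039 in MS against CTL (adjusted p = 1.00), -0.12 in Blebb against MS (adjusted p = 0.897) and -0.16 in Blebb against CTL (adjusted p = 1.00), each with a standard error of 0.16 (limma). The difference between Blebb and MS turned to 0.041 without the 3 libraries that stand apart, and MS against CTL was 0.095 without MS replicate 2 and -0.19 without MS replicate 3.

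The balance between both genes was then set out library by library. Bcl2l1 divided by Mcl1 gave a ratio of 0.650, 0.714 and 0.637 in CTL, 0.593, 0.847 and 0.450 in MS, and 1.09, 0.911 and 0.788 in Blebb. Blebb lay above CTL in all libraries and overlapped with MS through MS replicate 2. Summed over the 4 survival genes, CTL held 84.6 ± 2.80 FPKM, MS 80.0 ± 7.77 FPKM and Blebb 86.7 ± 2.81 FPKM (SD, n = 3). Of this sum Mcl1 made up 54.6% ± 1.31 in CTL, 56.6% ± 6.54 in MS and 47.6% ± 3.47 in Blebb (SD, n = 3), and Bcl2l1 made up 36.4% ± 1.36, 34.8% ± 7.01 and 43.9% ± 4.04. No test was made of these sums, since the members were chosen as a list. Across the 9 libraries Bcl2l1 and Mcl1 had a Pearson r of -0.63 and a Spearman rho of -0.72 (-0.47 for r with the GC trend removed), which is given as a description of libraries that share their composition.

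**Figure D3:**
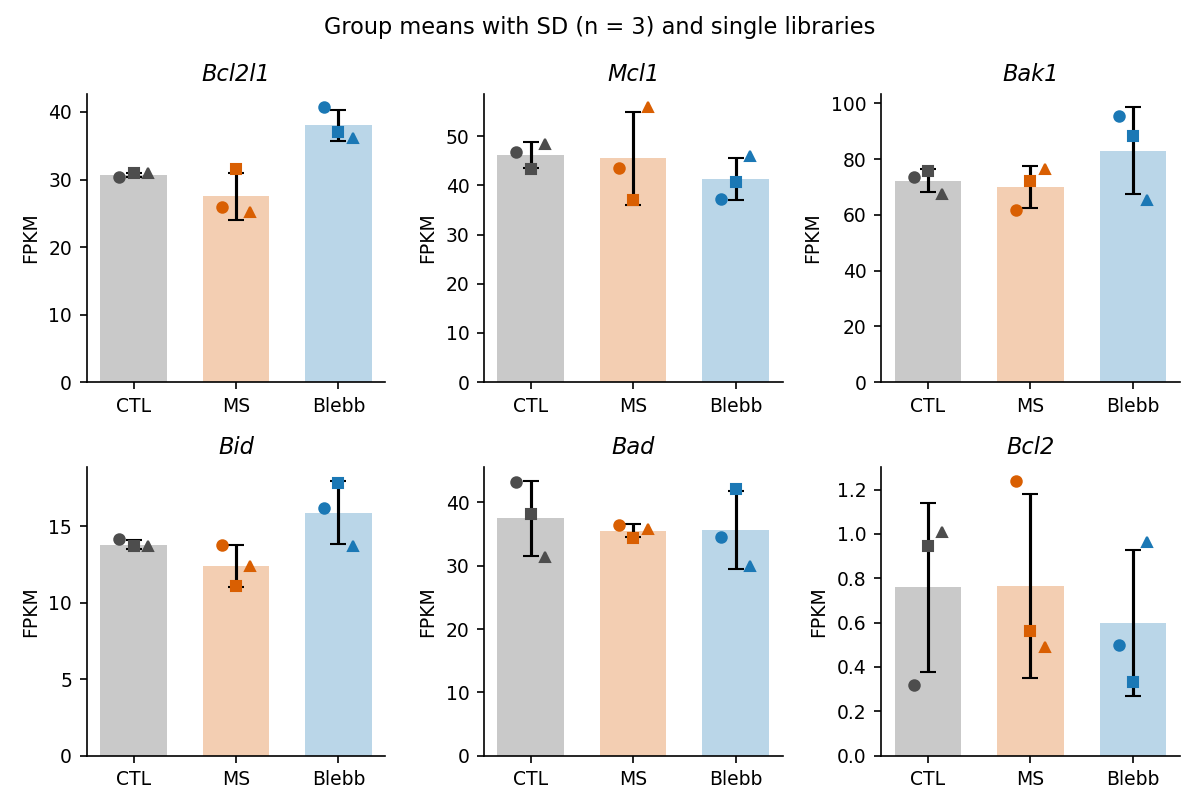
FPKM of Bcl2l1, Mcl1, Bak1, Bid, Bad and Bcl2 by group, with bars for the mean, error bars for the SD (n = 3) and symbols for the libraries. Bcl2l1 is the member in which the 3 Blebb libraries (36.2 to 40.7 FPKM) clear both other groups.

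Bcl2l2, which encodes BCL-W, was at 7.63, 6.29 and 6.63 FPKM in CTL, 5.86, 5.33 and 7.30 FPKM in MS and 5.75, 7.98 and 6.61 FPKM in Blebb. The groups overlapped throughout. The log2 fold changes were -0.14 in MS against CTL, 0.12 in Blebb against MS and -0.020 in Blebb against CTL, each below its standard error of 0.17 (adjusted p between 0.897 and 1.00, limma). The gene (chr14:54883377-54888234, plus strand) shares 594 exon bases with the gene Gm20521 on the same strand, which was at a mean of 0.531 FPKM, and fragments in these bases could belong to either.

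Bcl2, the founding member, is carried on chr1:106538178-106714274 (minus strand) and was under the minimum for limma. Its level was 0.320, 0.945 and 1.01 FPKM in CTL, 1.24, 0.564 and 0.488 FPKM in MS and 0.5, 0.332 and 0.964 FPKM in Blebb. Low and high libraries occurred in every group, and the groups overlapped. The means were 0.759 ± 0.381, 0.765 ± 0.415 and 0.599 ± 0.328 FPKM (SD, n = 3). By exact permutation, two-sided, p was 1 for MS against CTL, 0.6 for Blebb against MS and 0.8 for Blebb against CTL, and with 3 libraries against 3 it allows no p under 0.1. Bcl2 had the widest relative range of the members, the highest library being 3.88 times the lowest, and this range followed the libraries and not the groups. Its Pearson r with the first principal component was 0.95 over the 9 libraries, a value reached by 8.86% of the genes tested, and with the GC dependence of the libraries it was -0.90. The longest Bcl2 transcript has 7191 bases and a GC content of 46.3%. Mitf, at a mean of 21.4 FPKM, varied from 8.51 to 36.2 FPKM, and its r with Bcl2 was 0.94, which 9.85% of the genes tested also reached with Mitf. Composition of the libraries and a relation between the genes cannot be told apart here.

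Bak1 encodes BAK, the pore former that sits in the mitochondrial membrane of healthy cells. It was the most abundant member at 73.5, 75.6 and 67.6 FPKM in CTL, 61.9, 72.0 and 76.4 FPKM in MS and 95.3, 88.3 and 65.5 FPKM in Blebb. Blebb replicates 1 and 2 were the highest of the 9 libraries, and Blebb replicate 3 lay below every CTL library. The difference on the log2 scale was -0.047 in MS against CTL, 0.23 in Blebb against MS and 0.18 in Blebb against CTL, each with a standard error of 0.16 and an adjusted p of 0.897 or more (limma). The value against MS was 0.095 after removal of the GC trend and 0.39 without Blebb replicate 3. Bak1 has a GC content of 57.1% and correlated with the GC dependence of the libraries (r = 0.86, n = 9). It lies on chr17:27019810-27029009 (minus strand) and shares 177 and 437 exon bases with 2 annotated entries of Ggnbp1 on the opposite strand, at a mean of 0.350 FPKM.

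Bok, a relative of BAX and BAK, was close to 0, between 0.138 and 0.251 FPKM in CTL, 0.144 and 0.302 FPKM in MS and 0.109 and 0.290 FPKM in Blebb. The groups overlapped, and an exact permutation test, two-sided, had p = 0.6 for MS against CTL, 0.7 for Blebb against MS and 0.9 for Blebb against CTL, where no p under 0.1 is possible. It lies on chr1:93685660-93695764 (plus strand).

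Bid links death receptors to mitochondria and is cut by caspase-8 before it acts. It was at 14.2, 13.7 and 13.7 FPKM in CTL, 13.8, 11.1 and 12.4 FPKM in MS and 16.2, 17.8 and 13.7 FPKM in Blebb. Blebb replicates 1 and 2 were above all other libraries, and Blebb replicate 3, like CTL replicates 2 and 3, was at 13.7 FPKM. On the log2 scale Blebb was higher than MS by 0.33 (standard error 0.14, 95% interval from 0.016 to 0.64) with an unadjusted p of 0.0411 and an adjusted p of 0.897 (limma). The value was 0.25 without the 3 libraries that stand apart, where the unadjusted p was 0.194 (limma, adjusted p = 0.998). The remaining differences were -0.15 in MS against CTL and 0.18 in Blebb against CTL (adjusted p = 1.00, limma). Bid (chr6:120891930-120916853, minus strand) shares 628 exon bases with Bcl2l13 on the opposite strand, which was at a mean of 30.2 FPKM and differed by 0.17 between Blebb and MS. The strand setting of the counting is not given in the sources used here, so fragments of the overlap cannot be assigned.

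Bad encodes a BH3-only protein that binds BCL-XL and is silenced by phosphorylation. Its level was 43.2, 38.1 and 31.4 FPKM in CTL, 36.4, 34.4 and 35.8 FPKM in MS and 34.5, 42.2 and 30.0 FPKM in Blebb. The CTL and Blebb libraries each spanned the whole MS range. The log2 fold changes were -0.066, -0.012 and -0.078 in MS against CTL, Blebb against MS and Blebb against CTL, each below its standard error of 0.16 (adjusted p of 0.990 or more, limma). Over the 9 libraries Bad had an r of 0.80 with Ddit3, the gene of the stress factor CHOP, and 11.5% of the genes tested had an r with Ddit3 at least as high. Bad (chr19:6941861-6951899, plus strand) shares 524 exon bases with Gpr137 on the opposite strand, at a mean of 34.3 FPKM. As for Bid, fragments of this overlap cannot be assigned.

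Bcl2l11 encodes BIM, which binds all survival proteins of the family. It was low, at 1.88, 1.64 and 1.54 FPKM in CTL, 1.24, 1.58 and 1.70 FPKM in MS and 1.22, 1.75 and 1.63 FPKM in Blebb. The groups overlapped, with the lowest MS and Blebb libraries being replicate 1 of each. The log2 fold changes were -0.10 in MS against CTL, 0.012 in Blebb against MS and -0.088 in Blebb against CTL, each below its standard error of 0.16 (adjusted p of 0.990 or more, limma). Its 8 transcripts on chr2:128126038-128162547 (plus strand) include several protein forms that a value per gene does not separate.

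Pmaip1, the gene of the p53-induced protein NOXA that binds MCL1, was listed at 0 in 9 of 9 libraries. Atp5o, an ATP synthase subunit gene that every respiring cell uses, was listed at 0 in 9 of 9 as well, so no statement on Pmaip1 expression was made.

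The number of members with an adjusted p under 0.05 was 0 of the 7 tested in each comparison, beside 0.0% of all 10109 genes tested (limma). At an unadjusted p under 0.05 there were 0 members in MS against CTL (0.158% of all genes), 2 in Blebb against MS (Bcl2l1 and Bid, 1.25% of all genes) and 1 in Blebb against CTL (Bcl2l1, 0.089% of all genes). Without any difference, a fraction near 0.05 of all genes would be expected under this limit. The shares were lower, so a high adjusted p here does not show that a gene was unchanged. Groups that did not overlap were found for 0 members in MS against CTL (3.17% of all genes), 1 in Blebb against MS (Bcl2l1, 3.73%) and 1 in Blebb against CTL (Bcl2l1, 2.08%). Split by direction, the 2 members under 0.05 in Blebb against MS were higher in Blebb (0.722% of all genes), as was the 1 in Blebb against CTL (0.0791%). Members without overlap numbered 1 higher (3.05% of all genes) and 0 lower (0.683%) in Blebb against MS, 1 higher (0.93%) and 0 lower (1.15%) in Blebb against CTL, and 0 higher (0.524%) and 0 lower (2.64%) in MS against CTL. Over the 3 groups together, a moderated F test gave 0 of 7 members at an adjusted p under 0.05 (0.0% of all genes) in limma, and 1 at an unadjusted p under 0.05 (Bcl2l1, 0.257% of all genes). The limma p of Bcl2l1 over the 3 groups was 0.0122. In MS against CTL the 7 members had a median log2 fold change of -0.10 with 0 above 0, beside a median of -0.0018 for all genes, 49.5% of which were above 0. In Blebb against MS the median was 0.12 with 5 of 7 above 0, beside -0.0059 and 49.0% for all genes. In Blebb against CTL it was -0.020 with 3 of 7 above 0, beside -0.013 and 46.0%. The small negative differences of Bad and Bak1 in MS against CTL turned to 0.030 and 0.048 with the GC trend removed.

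**Figure D4:**
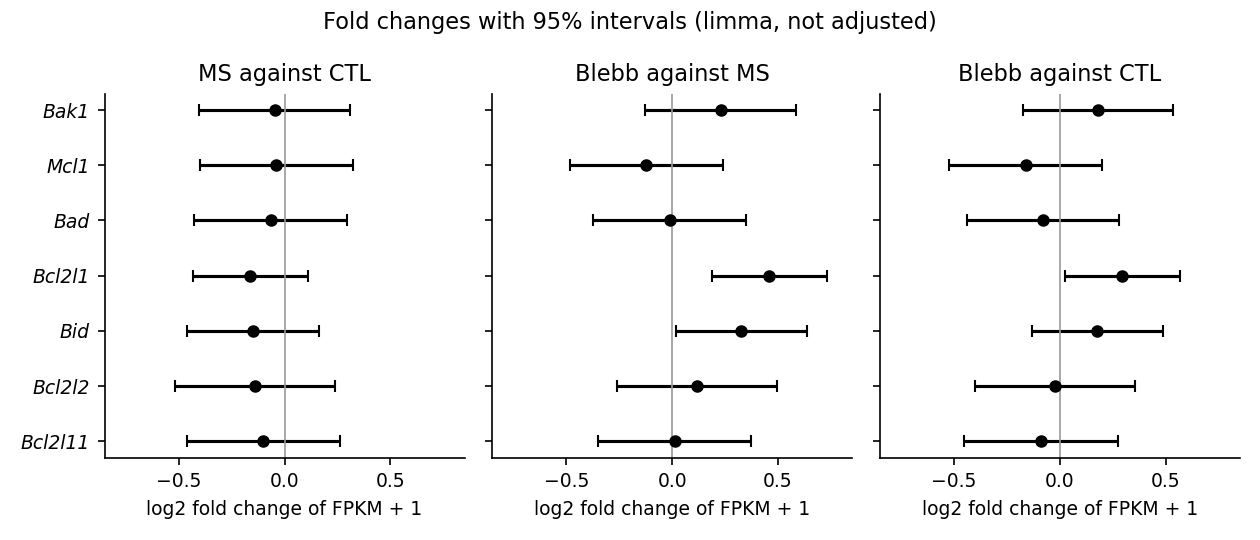
Log2 fold change of FPKM + 1 for the 7 members tested in the 3 comparisons, with points for the limma estimate and bars for the 95% interval before adjustment over genes. The bars clear 0 for Bcl2l1 (0.46) and Bid (0.33) in Blebb against MS and for Bcl2l1 (0.30) in Blebb against CTL.

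Summed over the BH3-only genes, of which Bad was the main part, CTL held 53.1 ± 6.34 FPKM, MS 49.5 ± 2.20 FPKM and Blebb 53.0 ± 8.29 FPKM (SD, n = 3). The sum of Bak1 and Bok was 72.4 ± 4.10, 70.3 ± 7.39 and 83.2 ± 15.7 FPKM in the same order. These sums overlapped between the groups. Bax, the other main pore former, is not among the 10 members and was higher than any of them at a mean of 193 FPKM, where CTL had 194 ± 27.4 FPKM, MS 181 ± 32.5 FPKM and Blebb 204 ± 12.3 FPKM (SD, n = 3). MS differed from CTL by -0.10 and Blebb from MS by 0.18 on the log2 scale (adjusted p of 0.897 or more, limma). Since RNA of whole cultures was sequenced, fewer cells with a transcript and less transcript per cell cannot be told apart in these values.

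**Figure D5:**
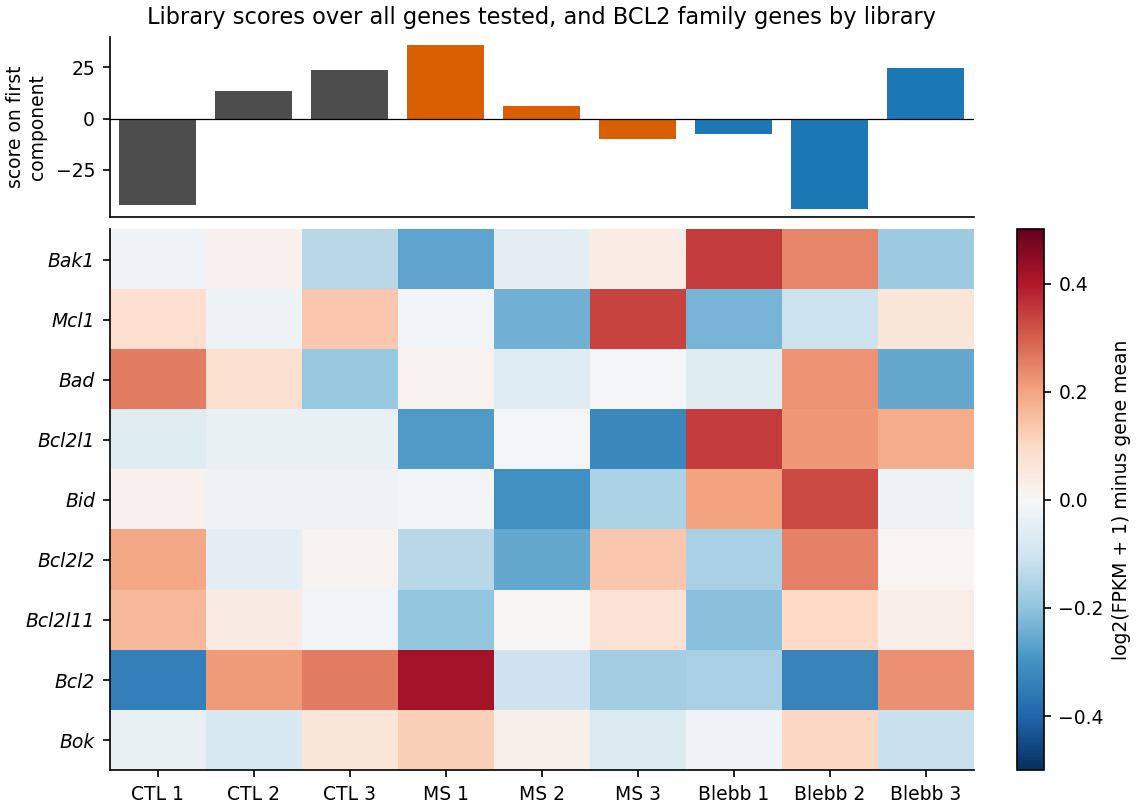
Score of each library on the first principal component over all genes tested (bars, top) and log2(FPKM + 1) of 9 members minus the mean of the gene (colours, bottom) by library. Bcl2 follows the score across the groups (r = 0.95), whereas Bcl2l1 is above its mean in the 3 Blebb libraries.

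A list of 48 further genes of the cell death pathway was set beside the members, and 38 of them entered the fit. An adjusted p under 0.05 was reached by 0 of them in each of the 3 comparisons (limma, smallest adjusted p 0.897), and an unadjusted p under 0.05 by 0 as well, with 0.054 as the smallest. In MS against CTL 23 of the 38 were above 0 (49.5% of all genes), in Blebb against MS 18 of 38 (49.0%) and in Blebb against CTL 19 of 38 (46.0%), with medians of 0.040, -0.047 and -0.0034. The survival genes Bcl2a1a, Bcl2a1b, Bcl2a1c and Bcl2a1d, near-identical copies whose reads are hard to assign, were listed at 0 in all libraries, and of the 5 survival genes of this list, Bcl2l10 included, 0 passed the minimum. Of the BH3-only genes, Bbc3, which encodes the p53 target PUMA, averaged 4.88 ± 0.864 FPKM for CTL, 4.43 ± 0.210 FPKM for MS and 5.61 ± 1.90 FPKM for Blebb (SD, n = 3), and Bmf averaged 1.80 FPKM. Among the relatives by sequence, Bcl2l13 had means of 30.2, 28.4 and 32.0 FPKM in CTL, MS and Blebb. Bnip3, a mitophagy receptor, was at 15.9, 11.4 and 8.03 FPKM in CTL, 29.4, 10.6 and 18.5 FPKM in MS and 9.73, 14 and 10.8 FPKM in Blebb. MS replicate 1 was the highest library, and the groups overlapped. Of 9 genes for release factors, channels and the apoptosome, Vdac1, Vdac2 and Vdac3 were highest at means of 318, 158 and 128 FPKM, and cytochrome c (Cycs) was at 111 FPKM. The caspases were led by Casp2 (12.5 FPKM) and Casp8 (10.5 FPKM). In the IAP (inhibitor of apoptosis) group, 4 of 4 tested genes were above 0 in MS against CTL (49.5% of all genes) and 0 of 4 in Blebb against MS (49.0%), with medians of 0.22 and -0.49 and a smallest adjusted p of 0.897 (limma). In Blebb against CTL 0 of 4 were above 0 as well (46.0% of all genes), with a median of -0.24. The same counts, in this order of comparisons, were 3 of 4, 1 of 4 and 1 of 4 for MCL1 stability. They were 3 of 6, 3 of 6 and 2 of 6 for caspases, and 7 of 9, 4 of 9 and 6 of 9 for release factors, channels and the apoptosome. For the transcription factors they were 4 of 8, 5 of 8 and 4 of 8, and for the relatives by sequence 2 of 4, 2 of 4 and 3 of 4. The comparisons share libraries and are not independent. The most abundant genes of the IAP group were Birc5 (survivin) at a mean of 72.5 FPKM and Xiap at 2.71 FPKM. Both were lowest in CTL replicate 1 and Blebb replicate 2, the libraries with the lowest scores on the first component, where Birc5 was at 43.3 and 35.9 FPKM and Xiap at 0.914 and 0.911 FPKM. Both were highest in MS replicate 1, which had the highest score, at 95.7 and 5.15 FPKM. The part of library composition in these differences was not tested. Of 4 genes that act on MCL1 stability or its partners, Bag6 (140 FPKM) and the ubiquitin ligase gene Huwe1 (10.0 FPKM) were highest. Among the transcription factors, Atf4 averaged 198 FPKM and Trp53, the gene of p53, 69.5 FPKM.

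The genes most like Bcl2l1 and Bak1, the tested members with the largest spread over the 9 libraries, were then taken by Pearson's r on the log2 scale. For Bcl2l1 they were Slc25a28 (r = 0.95), Qtrt1 (0.941), Ccl5 (0.937), Iba57 (0.927) and Dnajc11 (0.926), and 13 of 10108 genes had an r over 0.9. Slc25a28 encodes a mitochondrial iron importer and Ccl5 a chemokine, at means of 14.5 and 13.9 FPKM. For Bak1 they were Ptpn1 (0.951), Ttc7, Rnf166 and Csnk1g2 (each 0.946) and Ccdc22 (0.939), and 35 genes had an r over 0.9. These values rest on 9 libraries that share group and composition, and high values among so many genes carry no test.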

How the data were processed

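RNA extracted with TRIzol from B16 cells was sequenced in 9 libraries, grouped by the conditions in the labels. For each library the authors deposited a list of genes with FPKM values. In CTL replicate 1 the value column bears the sample's name and no unit, and its values were treated as FPKM, after the paper's methods and its sum of 484093 beside 439939 to 483140 in the other libraries. GRCm38 and mm10 are named in the submitters' processing notes. The aligner, counter, annotation and filters are not given in the sources used here. The depth is unknown (at most 1.59% of the ratios of low values fell in any bin), so no counting intervals were made.

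FPKM values were transformed to log2(FPKM + 1). The 10109 genes that averaged 1 FPKM or more were fitted in limma 3.58.1 (R 4.3.3) over the 3 groups with a mean-variance trend, two-sided, with Benjamini-Hochberg adjustment over all of them. Exact permutation served for members below this minimum. The limma test of MS against CTL was also run on simulated data with independent noise for each gene. Such noise lacks the differences that whole libraries share. Positions, overlaps and GC content (longest transcript, 9663 genes, 95.6%) came from GENCODE M21, and upstream sequences from RefSeq (9 of 10 members matched). Plots were drawn with matplotlib 3.10.9.

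The members, the wider list and the 3 libraries set apart were chosen with earlier results of these data known. The genes named were the 10 members, the wider list's most abundant genes by role and the 5 genes most correlated with each of 2 members. Mitf with Bcl2, Ddit3 with Bad and Atp5o were chosen after their values were seen, as were the motifs. Alternatives included median-of-ratios factors, quantile normalization, a pseudocount of 0.1, a minimum of 5 FPKM or none, fits of 2 groups alone or without the trend, the replicate number as a block, removal of each library's GC trend (loess, span 0.5), a block for the libraries set apart, both together, those libraries left out, and each library left out in turn.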

Additional observations from a re-analysis of the deposited data

How the results depend on the processing

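No member and no gene of the wider list passed an adjusted p of 0.05 (limma) under any alternative run. Over all genes the count was 0 except without MS replicate 2, where it was 1 in MS against CTL and 1 in Blebb against MS. Bcl2l1 stayed above 0 in both Blebb comparisons under each alternative, with each library left out from 0.40 to 0.56 against MS and from 0.25 to 0.33 against CTL. Its unadjusted p ran from 0.00156 to 0.0259 against MS (adjusted p of 0.45 or more, limma), and against CTL from 0.0106 to 0.116, so that the latter lies on either side of 0.05 by setting. The number of members at an unadjusted p under 0.05 in Blebb against CTL was 1 as reported, 0 with median-of-ratios factors, with quantile normalization, without the 3 libraries that stand apart, without Blebb replicate 1 or 2 and without any 1 CTL library, and 2 without Blebb replicate 3. In Blebb against MS it was 2 as reported, 1 with only those groups, without the 3 libraries, without MS replicate 2 or 3, without Blebb replicate 1 or 2 and without any 1 CTL library, and 3 without Blebb replicate 3. The share of all genes under this limit was taken for the fit as reported only (0.089% in Blebb against CTL, 1.25% in Blebb against MS). The counts under the alternatives, the replicate block included, therefore have no share beside them and are not read as a result about the members. Bcl2 and Bok, below the minimum, were recomputed only without the minimum and with each library left out.

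Deviations from the group means of libraries with the same replicate number had r from -0.78 to 0.84. The highest was between CTL replicate 3 and Blebb replicate 3. Because composition differed strongly between libraries, these values cannot tell whether libraries of the same number were handled together. With the replicate block the count at an unadjusted p under 0.05 was 1 in place of 2 in Blebb against MS and 0 in place of 1 in Blebb against CTL. In limma with this block Bcl2l1 had an unadjusted p of 0.0106 and 0.0592, and adjusted p of 0.949 and 1.00.

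Of 255 fold changes of single members under alternatives other than leaving out 1 library, 10 turned direction, and of 225 with 1 library left out, 24 did. The cause was not tested. In MS against CTL, Bad was at 0.030 and Bak1 at 0.048 after removal of the GC trend, alone or together with the library block, and Bad at 0.032 without the 3 libraries that stand apart. Mcl1 was then at 0.041 in Blebb against MS. Median-of-ratios factors gave 0.011 for Bad in Blebb against MS and 0.0042 for Bcl2l2 in Blebb against CTL, and quantile normalization gave 0.046 for Bcl2l2 and 0.0073 for Bcl2l11 in Blebb against CTL. With each library left out, values in MS against CTL ran from -0.19 to 0.12 for Bcl2, from -0.19 to 0.095 for Mcl1, from -0.19 to 0.038 for Bad, from -0.11 to 0.039 for Bak1 and from -0.0009 to 0.092 for Bok. In Blebb against MS they ran from -0.30 to 0.048 for Bcl2, from -0.26 to 0.033 for Mcl1, from -0.067 to 0.10 for Bcl2l11, from -0.14 to 0.10 for Bad and from -0.095 to 0.015 for Bok. In Blebb against CTL they ran from -0.13 to 0.077 for Bcl2l2, from -0.15 to 0.0045 for Bcl2l11, from -0.21 to 0.035 for Bad and from -0.050 to 0.059 for Bok.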

Other observations

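Bmf, whose BH3-only protein is tied to the cytoskeleton in healthy cells, was at 2.92, 1.30 and 0.982 FPKM in CTL, 1.18, 1.32 and 2.36 FPKM in MS and 1.35, 3.67 and 1.10 FPKM in Blebb. These are RNA levels and do not show where the protein was. The highest library of each group was the one set apart in the composition of its transcripts. Ddit3, the gene of CHOP, was also highest in these 3 libraries, at 137, 99.1 and 131 FPKM, against 18.5 to 45.7 FPKM in the remaining 6. The same libraries held the highest Bcl2l2 level of their group, at 7.63, 7.30 and 7.98 FPKM, and the highest Bcl2l11 level, at 1.88, 1.70 and 1.75 FPKM. The other members with a value above 0 did not have this pattern. In the wider list Bbc3, Casp9, Atf4, Foxo3 and Rela had it too. The share of all genes with this pattern was not taken, so it is not called particular to these genes. These genes were set together after their values were seen, and no test was made, since the libraries were set apart from the data.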
